A study of Mus musculus with 5 samples.

Results

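The genes examined were 8 genes of cholesterol synthesis and its control, Hmgcs1, Idi1, Fdps, Fdft1, Sqle, Lss, Insig1 and Srebf2, measured in 5 mouse embryonic stem cell (ESC) lines. They were chosen by name, as every non-control probe that the array files assign to these 8 of the 27962 gene names, and no gene of cholesterol uptake was among them. The 8 genes had 19 probes of 41174 in all. Of these, 18 passed the filter on dim probes and 17 were well above background in all 5 lines. The study disrupted ECAT11, a gene expressed in ESCs, by replacing its coding region with an EGFP cassette, and compared the transcripts of ESCs with and without the gene. RNA of each line was put, with a single dye, on 1 Agilent array of 60-base probes.

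The wild-type group held 2 lines. RF8 is the parental line of the targeting, of 129sv origin and labelled male, and #620-2 is of mixed C57BL6/129sv origin and labelled female. The ECAT11EGFP/EGFP group held 3 lines of mixed C57BL6/129sv origin that carry the EGFP allele on both chromosomes, #620-6 (labelled female), #757-1 and #757-2 (both labelled male). The #620 and #757 lines were derived from single blastocysts of crosses between carriers of the EGFP allele, on feeder cells, so each line is 1 clone and genotype was compared between clones. All 5 lines were grown in serum medium with LIF on gelatin, and no age applies to them. The arrays lay on 2 slides, with RF8, #620-2 and #620-6 on slide 1 and both #757 lines on slide 2. Slide and the #757 derivation therefore cannot be told apart.

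Probes well above background numbered 26371 to 27144 in the lines of slide 1, 22061 in #757-1 and 21250 in #757-2. All 8 of the ESC markers with a probe, Pou5f1, Sox2 and Nanog among them, were well above background in every line, although Zfp42 was at 4.0 in #620-6 and 3.87 in #757-2 against 6.55 to 7.0 elsewhere. Fibroblast markers were also detected, 7 or 8 of 8 in each line. Their summed level (log2) was 3.18 to 3.95 on slide 1, 1.29 in #757-1 and 2.22 in #757-2. Bright probes weigh most in that sum. By the median marker level, RF8 (-2.76) instead lay close to #757-1 (-3.10) and #757-2 (-2.94), below #620-2 (-0.82) and #620-6 (-0.71). Of 8 endoderm markers, 6 were well above background in each line of slide 1 and 3 in each #757 line, and Ttr in none. No probe was named as ECAT11, so the genotype labels could not be checked against its transcript. All levels are given as log2 intensity relative to the 75th percentile of the array. A level of 0 is that percentile, and a step of 1 is a doubling. Levels of different probes cannot be set against each other.

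Cells make cholesterol from acetyl-CoA through mevalonate, isoprenoid diphosphates and squalene. The enzymes are switched on together by SREBP-2, the product of Srebf2, a transcription factor that is held in the endoplasmic reticulum while sterols are plentiful. INSIG proteins hold it there by binding its escort SCAP, and when sterols fall the factor is cut free, enters the nucleus and binds sterol regulatory elements, commonly beside boxes for NF-Y and Sp1. ESCs divide rapidly and need cholesterol for membranes. Serum in the medium also supplies it in lipoproteins.

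The promoter windows of the members were read because the genes are known for shared control through such elements. RefSeq windows (build GRCm38.p6, 250 bases before to 50 after the start) were at hand for 5 of the 8 members, and Sqle, Fdps and Fdft1 had none. The stretches below lie before the start site, with capitals for the sterol regulatory element and for the NF-Y boxes, here all read on the opposite strand. They lie at chr13:119690166-119690320 for Hmgcs1, chr13:8885531-8885605 for Idi1, chr10:76531513-76531577 for Lss, chr5:28071166-28071230 for Insig1 and chr15:82147104-82147168 for Srebf2, each on the plus strand.
Hmgcs1: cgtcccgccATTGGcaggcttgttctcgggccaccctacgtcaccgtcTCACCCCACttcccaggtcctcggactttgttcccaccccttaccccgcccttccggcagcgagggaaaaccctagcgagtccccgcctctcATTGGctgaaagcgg
Idi1: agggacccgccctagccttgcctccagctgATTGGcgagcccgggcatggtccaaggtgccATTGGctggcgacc
Lss: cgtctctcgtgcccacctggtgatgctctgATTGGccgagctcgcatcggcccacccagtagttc
Insig1: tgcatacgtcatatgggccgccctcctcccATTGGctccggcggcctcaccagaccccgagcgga
Srebf2: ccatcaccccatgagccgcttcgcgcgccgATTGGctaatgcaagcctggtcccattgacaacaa

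The sterol regulatory element was searched as TCACNCCAC on both strands, where N is any base. It was found in 1 of the 5 member windows, that of Hmgcs1, beginning at base -137, and in 1.24% of all 32851 windows. The NF-Y box CCAAT was present on either strand in 5 of 5 member windows, at up to 4 sites in Hmgcs1, and in 37.4% of all windows. The Sp1 box GGGCGG was likewise in 5 of 5 and in 35.7% of all windows. The motifs did not overlap each other. These are matches of letters and were not tested for binding. Variants of the letters were not searched, so a window without a match may still hold such an element.

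All 8 members were transcribed at measurable levels in every line, and their brightest probes varied by 1.32-fold to 1.85-fold between the lowest and the highest line. Hmgcs1 encodes the cytosolic synthase that makes HMG-CoA, the step before mevalonate. Its brightest probe was at 4.52 in RF8, 4.89 in #620-2, 4.58 in #620-6, 5.41 in #757-1 and 5.20 in #757-2. The #757 lines were the highest, and #620-6 lay between the 2 wild-type lines, so the genotypes overlapped. Idi1 encodes the isomerase that interconverts the C5 isoprenoid diphosphates. It was at 4.07 in RF8, 3.79 in #620-2, 3.63 in #620-6, 4.46 in #757-1 and 4.35 in #757-2. Both #620 lines were below the other 3, and the knock-in line #620-6 was the lowest.

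Fdps encodes farnesyl diphosphate synthase, whose product feeds sterols and protein prenylation. Its brightest probe was at 2.99 in RF8, 2.86 in #620-2, 3.05 in #620-6, 3.39 in #757-1 and 3.65 in #757-2. Every ECAT11EGFP/EGFP line was above both wild-type lines, although #620-6 exceeded RF8 only slightly. Fdft1 encodes squalene synthase, the first enzyme committed to sterols. It was at 2.08 in RF8, 2.17 in #620-2, 2.14 in #620-6, 2.37 in #757-1 and 2.48 in #757-2. The 3 lines of slide 1 lay close together, below both #757 lines.

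Sqle encodes squalene epoxidase, an oxygen-dependent and rate-limiting enzyme. It was at 3.71 in RF8, 3.45 in #620-2, 3.61 in #620-6, 3.98 in #757-1 and 4.0 in #757-2. Lss encodes lanosterol synthase, which closes the sterol rings. Its brightest probe was at 0.45 in RF8, 0.16 in #620-2, 0.21 in #620-6, 0.67 in #757-1 and 0.70 in #757-2. For both genes the #620 lines were the lowest, RF8 was intermediate and the #757 lines were the highest.

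The regulators followed the same order of slides. Insig1 is itself a target of SREBP-2, and its protein closes a feedback loop. It was at -0.37 in RF8, -0.48 in #620-2, -0.16 in #620-6, 0.04 in #757-1 and 0.18 in #757-2. All 3 ECAT11EGFP/EGFP lines were above both wild-type lines in this, its brightest, probe. Srebf2 was at 4.24 in RF8, 4.13 in #620-2, 4.13 in #620-6, 4.55 in #757-1 and 4.59 in #757-2 by its brightest probe. Its #620 lines of opposite genotype were level with each other.

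**Figure D1:**
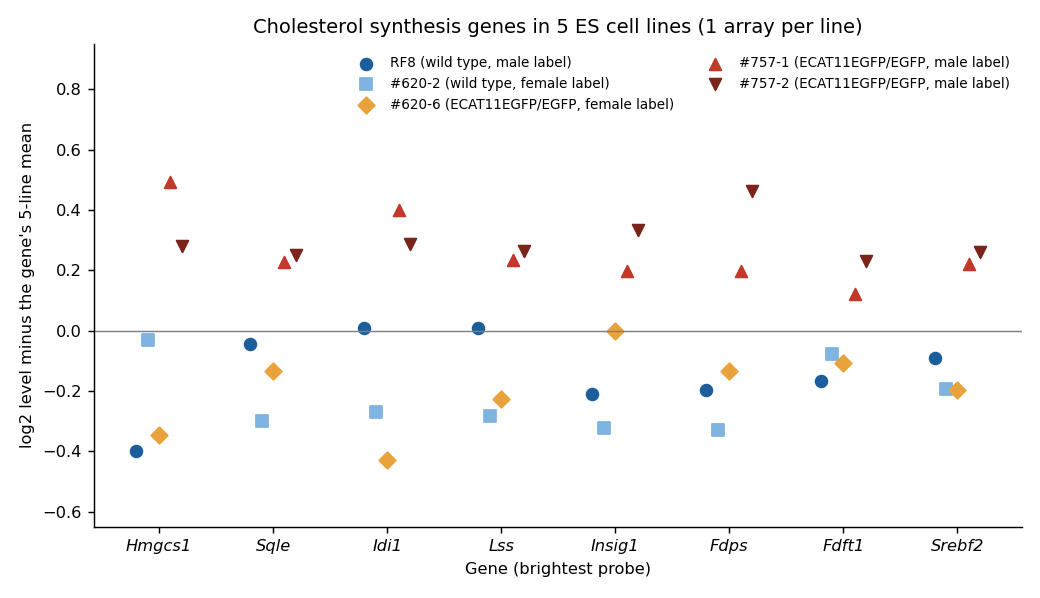
Log2 level of each gene's brightest probe minus its mean over the 5 lines (vertical axis) for the 8 genes (horizontal axis), 1 symbol per line and 1 array per line, with no error bars. Both #757 lines lie above the other 3 lines for 8 of 8 genes.

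Both #757 lines were thus above all 3 lines of slide 1 for 8 of 8 members, as were 15.4% of all probes well above background on every array. Of the 17 member probes well above background in all lines, 13 showed this order, and for 17 of 17 the #757 mean was above that of slide 1. The difference between the means ranged from 0.29 for Fdft1 to 0.65 for Hmgcs1 (log2), with a median of 0.43, against a median of 0.03 over all such probes. The order held for 8 of 8 members with normexp background correction, with quantile normalization and in the deposited log2 table. Among the lines of slide 1 no common order was seen, since RF8 was above both #620 lines for 4 members and below both for 2. Of 8 fibroblast markers, 3 were lower in both #757 lines than in every line of slide 1, as were 13% of all probes well above background on every array. The 8 had a median difference of -1.07, and the highest was 0.18. Their part in the members' levels was not tested. In a whole culture, fewer cells of a type and less RNA per cell cannot be told apart.

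The comparison of genotypes asked whether loss of ECAT11 changed these transcripts. By limma with Benjamini-Hochberg adjustment over 28972 probes, with a call at an adjusted p under 0.05 and more than 2-fold, 0 of the 18 member probes were called, against 0.00345% of all probes. None reached an unadjusted p under 0.05 in the direction of higher expression, against 4.03% of all, or in the other direction. The methods' t-test called 0 as well. The smallest adjusted p by limma was 0.668, for Insig1. With 2 lines against 3, the smallest p of an exact permutation test is 0.1.

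All 8 brightest probes had a higher fitted mean in ECAT11EGFP/EGFP lines, as did 17 of the 18 probes and 46.9% of all probes. Their median difference was 0.26 on the log2 scale, against -0.02 over all probes tested. The groups did not overlap, with the ECAT11EGFP/EGFP lines higher, for 2 of 8 brightest probes (Insig1 and Fdps) and 3 of 18 probes, against 11.2% of all. Insig1 averaged 0.02 ± 0.17 (SD, n = 3) in ECAT11EGFP/EGFP lines and -0.42 ± 0.08 (SD, n = 2) in wild-type lines. The fold was 1.36, with a 95% interval of 0.99 to 1.86. Fdps gave the same fold of 1.36, with an interval of 0.89 to 2.05. The intervals of the other 6 members also held 1, and the highest upper limit of the 8 was 2.27, for Hmgcs1.

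Both #757 lines were above slide 1 for all 8 members, so leaving them out necessarily lowered each difference between genotypes. In the 3 lines of slide 1, #620-6 minus the mean of the 2 wild-type lines had a median of -0.02 over the 8 members. Of these, 4 were higher and 4 lower, and the sign turned for Hmgcs1, Idi1, Lss and Srebf2. By their brightest probes, Insig1 and Fdps were still higher in #620-6 than in both wild-type lines, by 0.26 and 0.13 over the wild-type mean. Between lines of the same derivation, #620-6 minus #620-2 ran from -0.31 for Hmgcs1 to 0.32 for Insig1, with 4 of 8 members higher in the knock-in line. Between lines of the same sex label, the #757 lines exceeded RF8 by 0.23 to 0.89, for all 8 members as their order above implies. No replicate stands behind any of these single-line differences.

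**Figure D2:**
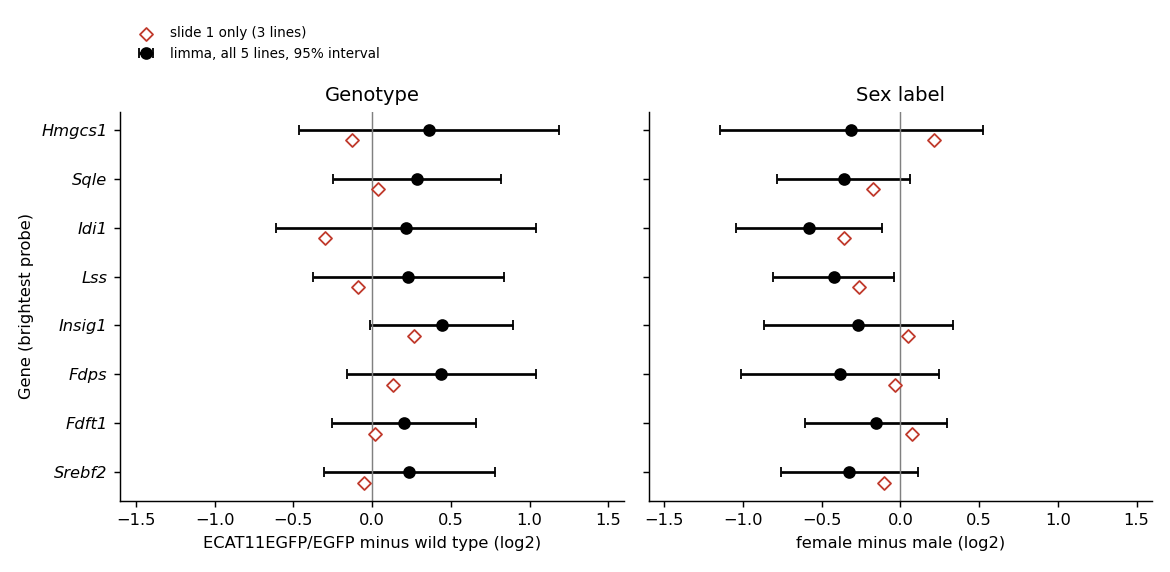
Fitted log2 difference of each gene's brightest probe (horizontal axes), ECAT11EGFP/EGFP minus wild type on the left and female minus male label on the right, for the 8 genes (vertical axis). Circles with bars are limma estimates with 95% intervals over 5 lines, and diamonds are the differences within the 3 lines of slide 1, which for genotype have a median of -0.02.

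The lines were also compared by sex label. The female-labelled lines are also the only #620 lines, so sex label and derivation cannot be told apart. All 8 brightest probes had a lower fitted mean in the female-labelled lines, as did 17 of 18 member probes and 51.5% of all probes. The 8 had a median difference of -0.34, against -0.01 over all probes tested. Again 0 of 18 were called by limma, against 0.356% of all probes, and the methods' t-test called 0. An unadjusted p under 0.05 with a lower level was found for 5 of 18, against 8.33% of all, and these were 1 probe of Idi1, 1 of Fdps and 3 of Lss. The smallest adjusted p was 0.147, for the dimmer Fdps probe A_52_P593965. It was at -1.09 in #620-2, -1.16 in #620-6, -0.55 in RF8, -0.56 in #757-1 and -0.30 in #757-2.

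The female-labelled lines did not overlap the male-labelled lines, and were lower, for 4 of 8 brightest probes (Sqle, Idi1, Lss and Srebf2) and 9 of 18 probes, against 20.1% of all. Idi1 averaged 3.71 ± 0.11 (SD, n = 2) in female-labelled and 4.29 ± 0.20 (SD, n = 3) in male-labelled lines, a difference of -0.58 with an SE of 0.18 and an adjusted p of 0.209 by limma. The male-labelled lines included the whole of slide 2. Within slide 1, RF8 exceeded the mean of the 2 #620 lines by a median of 0.07, and with slide as a block Hmgcs1, Insig1 and Fdft1 turned to higher in the female-labelled lines. In the same comparison 6 of 8 fibroblast markers were higher in the female-labelled lines, with a median difference of 1.45. Sox17, an endoderm factor, was the 1 of 7 endoderm markers tested that was called, at an adjusted p of 0.0361 by limma. It was higher in the female-labelled lines (difference 2.13) and well above background in 3 of the 5 lines. Its #757 values, -4.95 and -4.93, lay below the lowest signals well above background there, -4.50 and -4.23. Values near the limit of detection thus entered that call. The part of fibroblast or endoderm cells in the members' levels was not tested.

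The probes of a gene did not always move together. For 7 of 8 members all probes tested had the same sign between genotypes. Sqle and Fdft1 are among these 7 but had no other probe tested, so theirs could not disagree. Srebf2 was the exception. Its probe A_52_P302001 has the following sequence, placed by the file at chr15:82261838-82261897 (mm7, plus strand), and it is shown because its level in RF8 lay far from the other lines.
A_52_P302001: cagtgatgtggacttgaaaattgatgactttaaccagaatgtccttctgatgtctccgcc

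That probe was at -2.44 in RF8, -5.41 in #620-2, -5.48 in #620-6, -5.19 in #757-1 and -5.48 in #757-2, where the #757 spots were not well above background. RF8 was 7.84-fold above #620-2, the higher of the other lines with a spot well above background. The #757 spots were below the lowest signals well above background on their arrays, -4.50 and -4.23. RF8 was 3.79-fold above the mean of these log2 limits. With slide as a block it was the 1 member probe called by limma in the comparison of sex labels (adjusted p = 0.0493). The same fit called 148 of all 28972 probes. That fit sets RF8 alone against the #620 lines and takes the spread from within the #620 and #757 pairs, so it assumes that RF8 varies as they do. The other 3 Srebf2 probes varied by at most 1.37-fold between lines, and RF8 was not the highest in any of them. Probe A_52_P665742 had all 3 ECAT11EGFP/EGFP lines (2.08 to 2.15) above both wild-type lines (1.77 and 1.86), with an adjusted p of 0.743 by limma.

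Hmgcs1 had 2 dimmer probes whose range between lines differed from the 1.85-fold of the brightest. A_52_P119039, designed on the cDNA AK078743, was at -3.95 in RF8, -2.07 in #620-2, -3.76 in #620-6, -1.72 in #757-1 and -2.56 in #757-2. RF8 and #620-6, of opposite genotype, were the lowest, as for the brightest probe. The probe varied by 4.71-fold across lines, against 1.11-fold for A_52_P388072, where both #757 lines were the highest as for the brightest probe. For Fdft1, A_52_P136138 was not well above background in any line and gives no level. The files place the Hmgcs1 probes on an unassigned stretch and the Idi1 probes on chromosome 2 of mm7, whereas RefSeq places both genes on chromosome 13 of GRCm38.p6. Whether related copies share the signal of these probes was not tested.

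**Figure D3:**
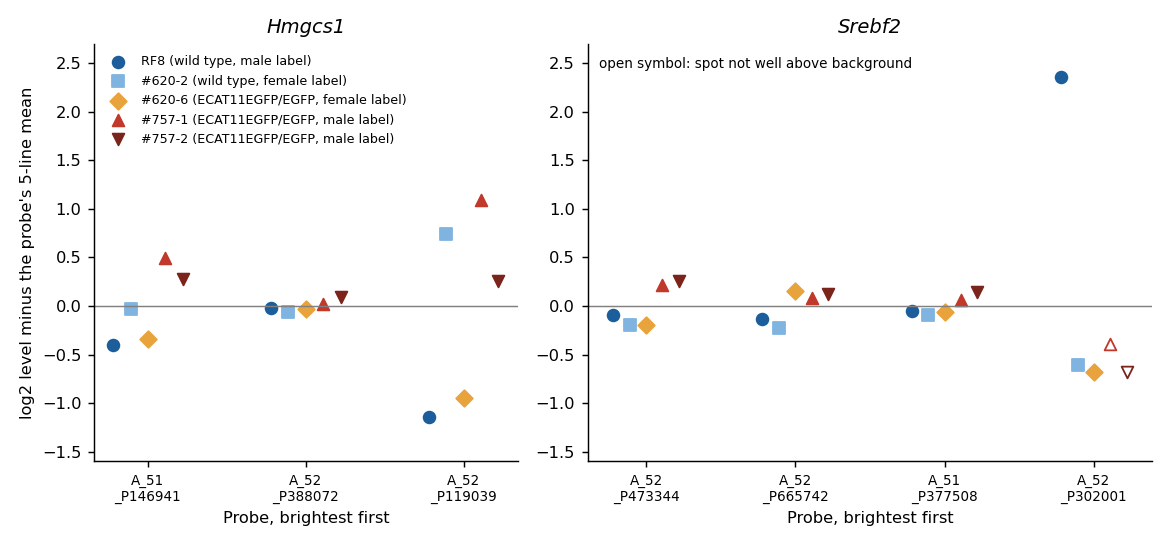
Log2 level of each probe minus its 5-line mean (vertical axis) for the 3 Hmgcs1 probes (left) and the 4 Srebf2 probes (right), ordered by brightness, 1 symbol per line. Open symbols are spots not well above background. For the Srebf2 probe A_52_P302001, RF8 lies 2.97 above #620-2, the highest of the other filled symbols.

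The rest of the pathway was examined as 4 gene lists, each gene by its brightest probe, and all of these probes were well above background in every line. None of 16 other mevalonate and sterol enzymes, 10 regulators, 12 genes of uptake, trafficking, storage and efflux or 9 genes of fatty acid synthesis was called by limma in either comparison. At an unadjusted p under 0.05, 1 regulator and 1 uptake or efflux gene were higher and 1 uptake or efflux gene was lower in ECAT11EGFP/EGFP lines. Of all 28972 probes tested, 1167 were higher and 1039 lower at that limit. In the sex comparison 2 of the 16 enzymes were higher and 4 lower in female-labelled lines at that limit. There, 1 regulator was higher and 1 lower, and 1 uptake or efflux gene was higher and 2 lower. Of all 28972 probes, 2807 were higher and 2412 lower in the sex comparison. There the enzymes had a median difference of -0.30, with 12 of 16 lower in female-labelled lines. The regulators had -0.072, with 6 of 10 lower. The uptake and efflux genes had 0.12, with 5 of 12 lower, and the fatty acid genes -0.24, with 6 of 9 lower. Of all probes tested, 51.5% were lower. Both female-labelled lines lay below the others for 8 enzymes and 3 regulators. They did so for 2 uptake and efflux and 3 fatty acid genes, against 20.1% of all probes. Between genotypes the enzymes had a median difference of 0.12, with 13 of 16 higher, the regulators had 0.01, with 5 of 10 higher, the uptake and efflux genes -0.084, with 5 of 12 higher, and the fatty acid genes 0.082, with 7 of 9 higher. Of all probes tested, 46.9% were higher in ECAT11EGFP/EGFP lines. Both #757 lines were above slide 1 for 5 of the 16 enzymes, 1 of 10 regulators, 1 of 12 uptake and efflux genes and 0 of 9 fatty acid genes. The share over all probes well above background on every array was 15.4%.

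Among the enzymes, Msmo1, a C4-methyl sterol oxidase, was at 4.71 in RF8, 4.31 in #620-2, 4.19 in #620-6, 5.02 in #757-1 and 4.70 in #757-2. Its #620 lines were below the other 3, as for Idi1. Ebp, the sterol isomerase, was at 3.80 in RF8, 4.65 in #620-2, 5.54 in #620-6, 3.69 in #757-1 and 3.99 in #757-2. Ebp ran opposite to the members, with both female-labelled lines the highest (difference 1.27, SE 0.31, adjusted p = 0.158 by limma). Ebp, Nsdhl, a sterol dehydrogenase, and Mbtps2, the site-2 protease that frees SREBPs, are X-linked. All 3 were higher in both female-labelled lines, none passed the adjusted threshold, and the differences of Nsdhl and Mbtps2 were 0.51 and 0.74. Over 614 X-linked probes well above background in all lines the median difference was 0.55, against -0.05 over 17964 autosomal probes.

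Srebf1, the paralog that mainly drives fatty acid synthesis, was at 4.43 in RF8, 3.77 in #620-2, 4.0 in #620-6, 4.22 in #757-1 and 4.46 in #757-2. Scap stayed between 3.24 and 3.60 and Insig2 between 0.80 and 1.29 in the 5 lines. Mylip, a ubiquitin ligase for lipoprotein receptors, was at -0.26 in RF8, 0.36 in #620-2, 0.93 in #620-6, 0.67 in #757-1 and 1.08 in #757-2. Its genotype groups did not overlap (difference 0.84, SE 0.26, adjusted p = 0.579 by limma). Abca1, a cholesterol exporter, was at -0.89 in RF8, -0.39 in #620-2, -0.00 in #620-6, -2.10 in #757-1 and -2.32 in #757-2. Abca1 was lowest in the #757 lines, where the members were highest. Lipa, the lysosomal lipase, was likewise lowest there, at -3.74 and -3.32 against -2.82 to -2.21 on slide 1. Both #757 lines were below slide 1 for 3 of the 12 uptake and efflux genes and above it for 1. The share below over all probes well above background on every array was 13%. Elovl6, a fatty acid elongase, was lowest in RF8, at 2.44 against 3.04 to 3.46 in the other lines.

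**Figure D4:**
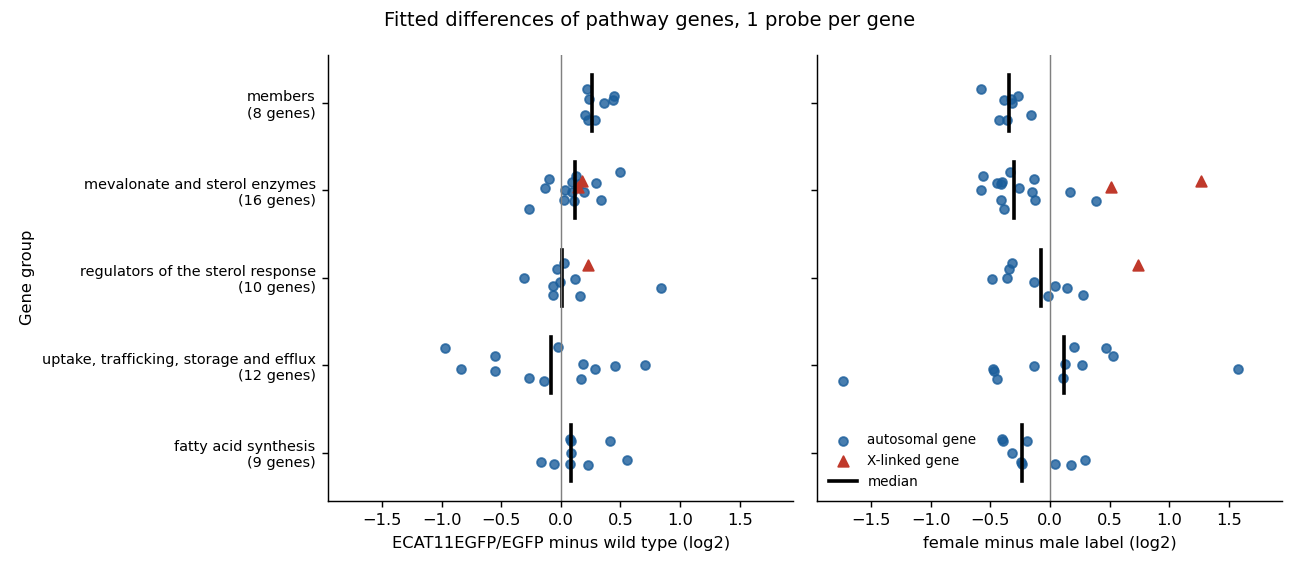
Fitted log2 differences (horizontal axes), ECAT11EGFP/EGFP minus wild type on the left and female minus male label on the right, for the 8 members and 4 gene lists (vertical axis), 1 point per gene with small vertical scatter for legibility. Vertical bars are medians (0.26 and -0.34 for the members), and triangles are X-linked genes.

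The likeness of other genes to the members was measured as the root mean square difference between a gene's centred 5-line profile and the mean profile of the members, over 9027 genes with a range of similar size. The nearest 10 were Zfp710, Pnrc1, Eml2, Krtap19-1, Fgl1, Rad9a, Vmn1r46, Svip, Cdca5 and Zfp330, at 0.035 to 0.054, against a median of 0.28 over all these genes. None of them was in the pathway lists. Among the nearest genes in those lists, picked after their values were seen, Sc5d and Mvd, enzymes of sterol synthesis, were at ranks 119 and 227. Over 5 lines such a rank is a description.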

How the data were processed

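The authors scanned 5 one-colour Agilent arrays, 1 per ESC line, and deposited the Feature Extraction 9.5.3.1 output, in which each spot has an intensity before and after background subtraction. A log2 table that the authors deposited beside it holds these arrays too, and its centring is not stated. Differences between its arrays matched those of the intensities (slope 0.999, Pearson r 1.00 across 20622 probes). Control spots and spots marked as outliers (0.335%) were left out, the background-subtracted intensities were scaled to the array's 75th percentile, log2 was taken, and spots of a probe were averaged. As in the methods, a probe needed a Present flag in 1 line or more (28972 did). All of these entered the fits by limma 3.58.1 (R 4.3.3). A gene was represented by its brightest probe. Named genes were the members, the genes of largest range in each list, Srebf1, Scap, Insig2 and the 10 genes most like the members. Some list genes are not reported here by name. The members and lists were chosen with earlier results of these data known. Probe positions are those of the files (mm7). Of 41174 probes, 22951 were named through a RefSeq accession, 9768 through a symbol or synonym, and 8455 kept the file's name. The code was tested on simulated data. The lines are separate clones with 1 array each, and their number limits the precision. Alternatives were normexp (offset 50), quantile normalization, the deposited table, other filters, marked spots kept, the methods' t-test, the other label as a covariate, slide as a block, all probes averaged, and leaving out each line. The values within slide 1, the interaction of genotype with sex label, the counts and differences of the #757 lines against slide 1, and the average over probes well above background in every line were added after seeing the data. Tables and figures were made with pandas 2.3.3 and matplotlib 3.10.9.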

Additional observations from a re-analysis of the deposited data

Results flagged for a closer look

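For 4 members the difference between genotypes ran one way in the #620 lines and the other way in both #757 lines set against RF8. The interaction of genotype with sex label, #620-6 minus #620-2 less the mean #757 minus RF8, was -1.10 for Hmgcs1, -0.49 for Idi1, -0.37 for Fdft1 and -0.34 for Srebf2 on the log2 scale. None passed the threshold, with adjusted p of 0.45, 0.62, 0.68 and 0.69 by limma. For Srebf2 the #620 lines differed by less than 0.01, so its sign there carries little. The female-labelled pair lay on 1 slide, the #757 lines on the other and RF8 with the pair, so the interaction cannot be told apart from slide.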

How the results depend on the processing

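No member probe was called in the comparison of genotypes under any of the 14 alternatives run, nor in that of sex labels except with slide as a block, where 1 was called (the Srebf2 probe that is high in RF8, the 1 male-labelled line of slide 1). With slide as a block the median difference of the members moved from 0.26 to -0.019 between genotypes and from -0.34 to -0.068 between sex labels. The genotype sign turned for Hmgcs1 (-0.13), Idi1 (-0.30), Lss (-0.088) and Srebf2 (-0.054), and the sex sign for Hmgcs1 (0.21), Insig1 (0.048) and Fdft1 (0.075). Slide 1 alone gave the same genotype median, -0.019, since the block leaves only those 3 lines to inform it. With all probes of a gene averaged, Srebf2 turned to -0.20 between genotypes through the probe that is high in RF8. Under the other alternatives the brightest probe of every member kept its sign. Leaving out each line gave 0 calls throughout, and medians of 0.18 (without #757-1) to 0.44 (without #620-6) for genotype and -0.48 to -0.25 for sex label. Calls over all probes in the sex comparison, 103, became 287 under normexp, 210 after quantile normalization and 27 when unfiltered. They became 147 when only probes well above background in every line were fitted, and 148 with slide as a block. By the methods' t-test they became 2, with genotype as a covariate 0, and without 1 line 0 to 88. The 1 call between genotypes was lost under normexp, quantile normalization, other filters, the methods' t-test, the covariate, the block and without any 1 line. Slide 2 had fewer probes well above background, which limits what dim probes show there. No paired analysis was possible because only #620-2 and #620-6 share a number between the groups, which is 1 pair.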
